A study of Mus musculus with 12 samples.

Results

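miR-31 is read here through its 2 mature arms, miR-31-5p and miR-31-3p, the rows of that name in a table of 932 small RNA rows, 730 of them with a mouse miRNA name. The 2 rows were picked by name with their values in all 12 libraries already known, so the differences between genotypes given for them are a description and no p-value is printed for them. Calls from fits across the whole table are given for them only as counts beside the share of all rows called, and nothing is read from those counts. The libraries were made from total RNA of mitochondria isolated from mouse heart, 6 from db/db mice and 6 from wild-type (WT) mice. db/db mice are homozygous for a leptin receptor mutation and grow obese and diabetic. WT is named in the labels only as the control genotype. Age, sex and strain background are not stated in the labels, which number the libraries 1 to 6 within a genotype without saying that each is a separate animal. Whether miR-31 sits inside mitochondria was not tested, since no whole-heart or cytosolic fraction was measured alongside.

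miRNAs are short RNAs that sit in Argonaute proteins and pair with messenger RNAs, mainly through the seed, bases 2 to 8 from the 5′ end. A hairpin precursor is cut to a duplex, and usually one arm is kept in Argonaute while the other is degraded. miR-31 is a conserved miRNA with a single hairpin gene in the mouse. It is known from skin epithelium, from vascular smooth muscle, where it has been tied to growth after injury in the rat, and from regulatory T cells. In rat hearts it has been described as raised after infarction.

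The sequences below are shown because the arms differ in the sequence of their seed, and because the hairpin shows how the duplex is built. They come from RefSeq (GRCm38.p6). In the mature sequences the capitals mark the seed, and in the hairpin they mark the 2 mature arms.
mmu-miR-31-5p: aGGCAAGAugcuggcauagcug
mmu-miR-31-3p: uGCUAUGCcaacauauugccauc
mmu-mir-31 hairpin: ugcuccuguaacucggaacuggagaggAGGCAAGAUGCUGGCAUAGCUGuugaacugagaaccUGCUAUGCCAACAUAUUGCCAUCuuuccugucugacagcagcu

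The hairpin of 106 bases matched the Mir31 transcript of GENCODE M21 in full and lies at chr4:88910557-88910662 on the minus strand of GRCm38. It falls inside exon 3, the last of 3 exons, of AL805899.1, a long intergenic noncoding RNA of 88909855 to 88938521 on the same strand. The arms are 22 and 23 bases long with 14 bases between them, and in the fold predicted for the hairpin 17 of the 22 bases of miR-31-5p paired with a base of miR-31-3p. Of the table's rows, 635 had a mature sequence in the RefSeq table. None of the others among these 635 shared the seed of either arm, or its first 6 bases. The nearest other sequence was 8 edits away from each arm, miR-1947-5p for miR-31-5p and miR-3963 for miR-31-3p. Both arms are therefore represented by 1 row each with no near copy among those 635.

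Depth, recovered as whole reads from the deposited values, was 412749 to 1382046 reads in db/db libraries and 551591 to 962697 reads in WT libraries. All 4 cardiac and skeletal muscle miRNAs listed as markers (miR-1a-3p, miR-133a-3p, miR-208a-3p and miR-499-5p) were above 0 in all 12 libraries. Values are in RPM, reads scaled to a library sum of 1000000, so each is a share of the listed small RNA reads. A higher share of a cell type, more RNA per cell of it and less of other RNAs cannot be told apart in such bulk samples.

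miR-31-5p, the arm that holds nearly all miR-31 reads, had a higher mean in db/db than in WT libraries. In db/db libraries 1 to 6 it stood at 415, 355, 436, 376, 423 and 402 RPM. In WT libraries 1 to 6 it stood at 272, 272, 271, 218, 365 and 219 RPM. The groups met at 1 point: WT library 5 lay above db/db library 2 and below the other db/db libraries. Thus 5 of 6 db/db libraries lay above every WT library, and 5 of 6 WT libraries lay below every db/db library. The mean was 401 ± 30.6 RPM in db/db and 269 ± 53.5 RPM in WT libraries (SD, n = 6 each), a ratio of 1.49.

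**Figure D1:**
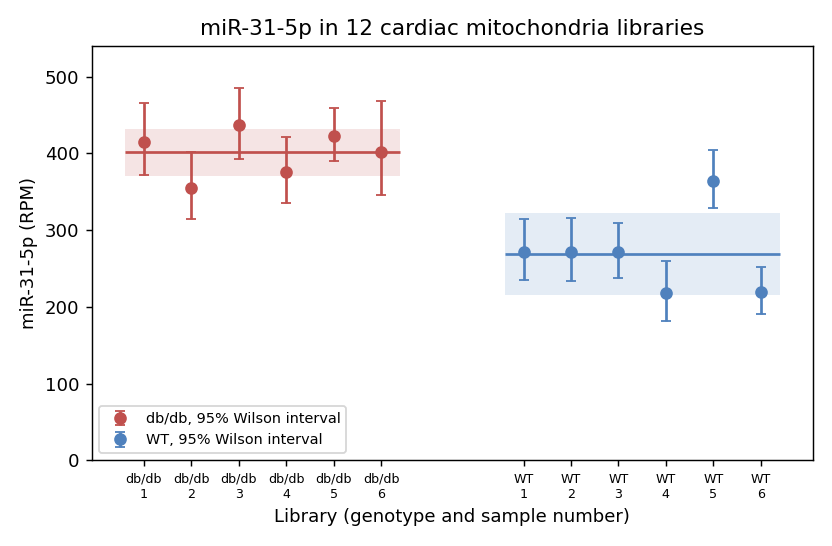
miR-31-5p in RPM (vertical axis) in each of the 6 db/db libraries (left) and 6 WT libraries (right). Points are libraries with 95% Wilson intervals, which cover counting error only; lines are genotype means and bands are ± 1 SD. All db/db points lie between 355 and 436 RPM, and the WT points lie between 218 and 272 RPM except library 5 at 365 RPM.

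These values rest on 166 to 585 reads per db/db library and 120 to 351 reads per WT library. Counting error alone would give a coefficient of variation of about 5.87% in db/db and 7.26% in WT libraries at these depths. The measured one was 7.63% in db/db and 19.9% in WT libraries, or 11.6% in WT without library 5. WT libraries 1, 2 and 3 were within 1 RPM of each other, while libraries 4 to 6 supplied both ends of the WT range. In rank among the 730 named rows, miR-31-5p stood at 91 to 96 in db/db libraries and at 100 to 119 in WT libraries, 1 being the most abundant.

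On the scale of the fit across the table, log2(RPM + 1), the difference of miR-31-5p was 0.59 ± 0.21 (SE), db/db minus WT. This SE is moderated by limma, which borrows the spread of other rows of like abundance. The median difference of the 646 rows tested, which averaged 1 RPM or more, was -0.04, and 308 of them were above 0. Among the 147 rows that averaged 100 RPM or more, 0 had a higher positive difference than miR-31-5p. In absolute size 3 of them exceeded it, all lower in db/db: miR-181d-5p at -0.86 ± 0.30, the myeloid miR-223-3p at -0.72 ± 0.22 and miR-195a-5p, a relative of miR-15, at -0.62 ± 0.18 (log2 difference, SE). The cut at 100 RPM was not planned. Rows of lower abundance spread more widely, as the plot of all tested rows shows, and some had a larger positive difference, such as miR-30b-3p at 1.28 ± 0.78 (log2 difference, SE).

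**Figure D2:**
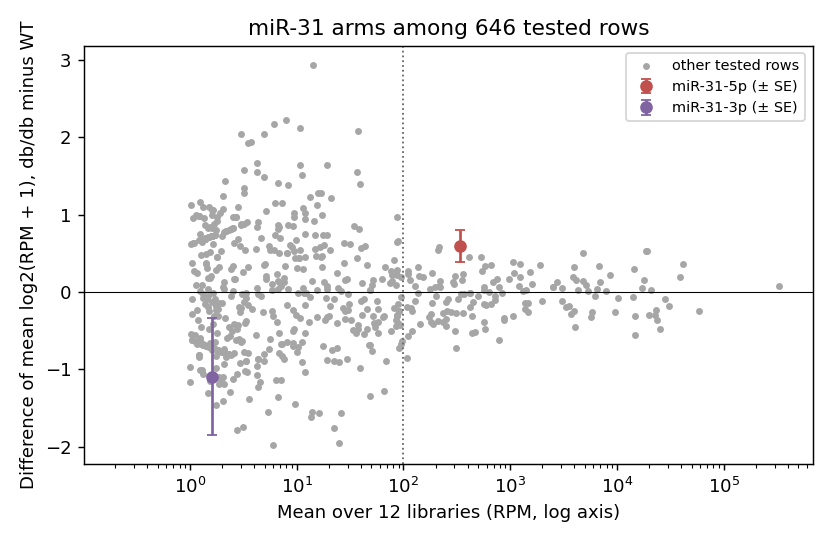
Difference of mean log2(RPM + 1), db/db minus WT (vertical axis), against mean RPM over 12 libraries (log axis) for the 646 tested rows; each grey point is a row, and the bars on the miR-31 arms are SE. Right of the dotted line at 100 RPM miR-31-5p (0.59) is the highest point, while miR-31-3p (-1.09) lies at the low-abundance edge among many rows of like size.

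With an adjusted p under 0.05 as the call, limma called 0 of the 2 arms, where it called 1 of 646 rows (0.155%; 0 higher and 1 lower, with 58 rows at an unadjusted p under 0.05). On recovered reads edgeR called 0 of the 2 arms, against 3 of 646 rows (0.464%), and DESeq2 called 1 of the 2 arms, against 13 of 646 rows (2.01%). DESeq2 gave an adjusted p to only 145 of the rows, so its calls were adjusted over fewer rows than those of the other tools. Only these rows could be called, so its share among them, 13 of 145, is higher than the share over all 646. The log2 fold change of miR-31-5p was 0.61 by edgeR and 0.64 by DESeq2.

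Split by sample number, the ratio of miR-31-5p was similar in both parts. These are the same values with which the arm was picked, so the split is a description and no replication. In libraries 1 to 3 miR-31-5p averaged 402 ± 42.2 RPM in db/db and 271 ± 0.391 RPM in WT libraries (SD, n = 3 each), a ratio of 1.48. In libraries 4 to 6 it averaged 400.5 ± 23.6 RPM in db/db and 267 ± 84.5 RPM in WT libraries (SD, n = 3 each), a ratio of 1.5. Within numbers 1 to 3 the lowest db/db library (355 RPM) lay above the highest WT library (272 RPM), as in 33 of 646 rows (5.11%). Within numbers 4 to 6 the same held (lowest db/db 376 RPM, highest WT 365 RPM), as in 24 of 646 rows (3.72%). Over all 12 libraries 2 of 646 rows (0.310%) had every db/db library above every WT library, and miR-31-5p was not among them.

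**Figure D3:**
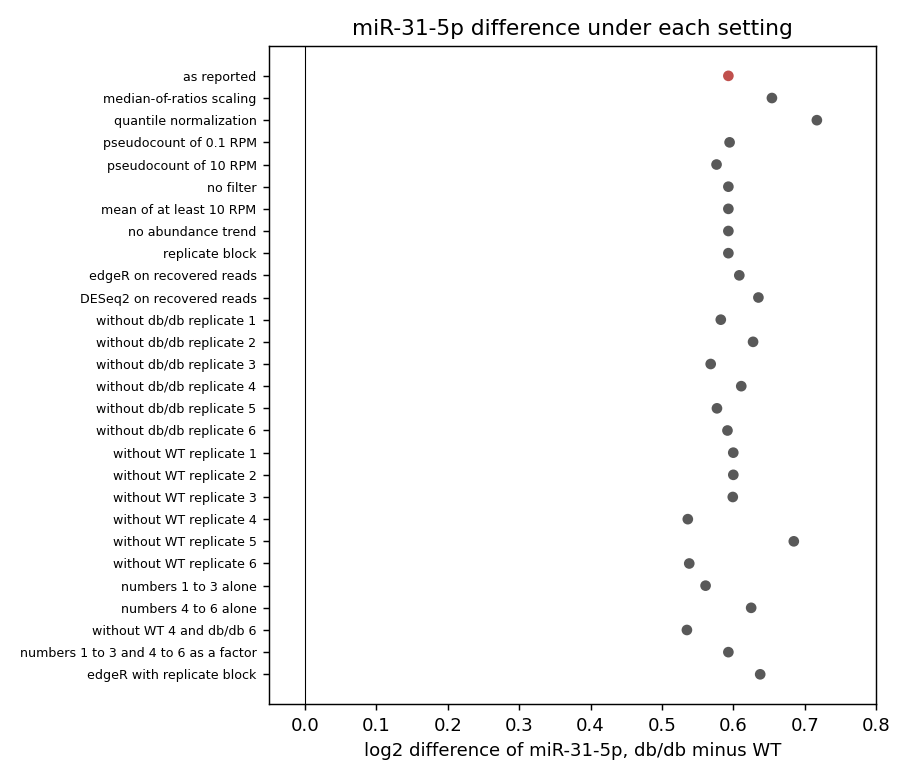
log2 difference of miR-31-5p, db/db minus WT (horizontal axis), under each processing setting (1 row each; the value reported in the text is the red point at the top). edgeR and DESeq2 give a log2 fold change of reads. All points lie between 0.53 and 0.72.

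miR-31-3p, the other arm of the duplex, was at or near 0 in both genotypes. It was at 0 in all 6 db/db libraries. In WT libraries it was above 0 in library 2 (14.2 RPM, 9 reads) and library 5 (5.19 RPM, 5 reads) and at 0 in libraries 1, 3, 4 and 6. A value of 0 allows up to 3 reads, which is 2.17 to 7.27 RPM in db/db libraries and 3.41 to 5.44 RPM in the 4 WT libraries at 0. The value of WT library 5 thus lies within what a 0 allows in 2 other libraries, db/db library 6 and WT library 4. Only WT library 2 stood above the limit of every library at 0.

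Summed over libraries, miR-31-3p had 0 of 4791472 reads in db/db and 14 of 4485235 reads in WT libraries, or 3.12 RPM in WT. Set against the limit of 3 reads over the db/db group (0.626 RPM), the WT level over summed reads was 4.99-fold that limit. This takes the WT reads as counted. At the lower end of the exact 95% Poisson interval of the WT level (1.71 to 5.24 RPM) it would be 2.73-fold that limit. Both figures pool the libraries of a group and leave out the spread between them. WT libraries 1, 3, 4 and 6 were at 0 like the db/db libraries, so neither figure bounds a difference between genotypes. Without WT library 2, which held 9 of the 14 reads, WT had 5 reads of 3851900 (1.30 RPM), all from WT library 5. Taken as counted, this WT level would be 2.07-fold the db/db limit. The counting error of 5 reads is left out of that figure, so it is no bound. The fitted difference of -1.09 ± 0.76 (log2(RPM + 1), SE) depends on the pseudocount and is no bound. miR-31-3p passed the filter of a mean of at least 1 RPM only through WT libraries 2 and 5.

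The share of miR-31 reads in the 5p arm was 100% in each db/db library, where the 3p arm could hold up to 0.513 to 1.81% given the 3 reads that a 0 allows. In WT libraries it was 95.03% in library 2 (95% Wilson interval 90.8 to 97.4%), 98.6% in library 5 (96.8 to 99.4%) and 100% in the other 4. The mean share was 100% ± 0 in db/db and 98.9% ± 2.00 in WT libraries (SD, n = 6 each), a difference of 1.06 percentage points. Summed over libraries, the 3p arm held 1.12% of miR-31 reads in WT (95% Wilson interval 0.671 to 1.88%), and up to 0.155% in db/db. Without WT library 2 the difference of the mean shares was 0.281 percentage points.

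Compared with other hairpins, a strong preference for 1 arm was common. Of 195 hairpins with both arms in the table and a read in either, 93 had a mean of at least 100 RPM in both arms together. In these 93 the more abundant arm held a median of 98.4% of reads, against 99.6% for miR-31 over all 12 libraries. A larger share was found in 30 of the 93. The less abundant arm was above 0 in every library in 41 of the 93 and, as for miR-31-3p, in 2 or fewer libraries in 12 of the 93. The 5p arm was the more abundant one in 52 of the 93. By the mean of both arms miR-31 ranked 67 of the 195 hairpins. The 3 next above it were miR-34a, with 99.7% of reads in the 5p arm, let-7e with 95.4% and miR-148a with 1.23%. The 3 next below were miR-532 with 86.0%, miR-106b with 75.6% and miR-223 with 1.59%.

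**Figure D4:**
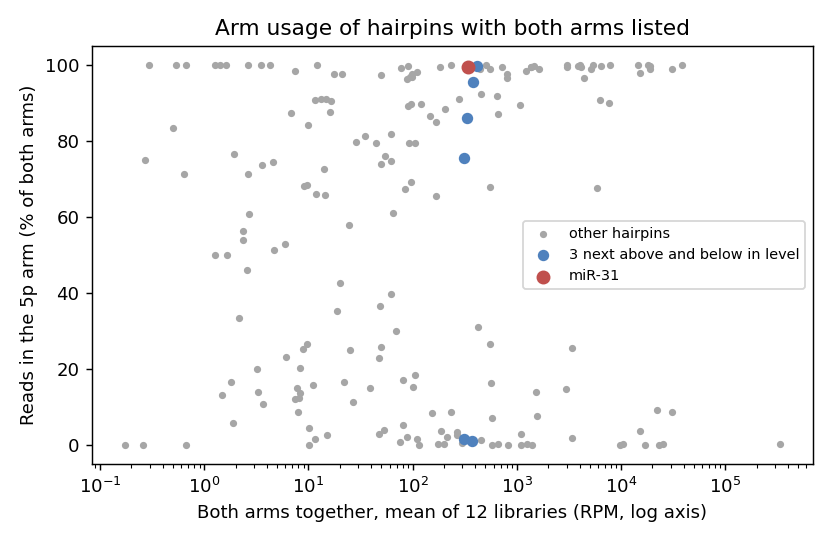
Percent of a hairpin's reads in the 5p arm (vertical axis) against the mean RPM of both arms together (log axis), over 12 libraries, for 195 hairpins; each point is a hairpin, with miR-31 in red and the 3 next in level on each side in blue. miR-31 lies at 99.6%, in the band of hairpins that use almost only the 5p arm.

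The rows whose level moved most like miR-31-5p from library to library, after the genotype means were taken out, were looked up among 286 other named rows that averaged 10 RPM or more. The correlations are over 12 libraries that share their depth and scaling, and are given as a description. The highest Pearson r was 0.70 for miR-532-5p, of an X-linked cluster (Spearman rho 0.76). It was 0.68 for miR-155-5p, a miRNA of activated lymphocytes and macrophages (rho 0.73), and 0.63 for miR-30b-3p (rho 0.38). It was 0.61 for miR-10b-5p, encoded in a Hox cluster (rho 0.54), and 0.61 for miR-127-5p, of the imprinted Dlk1-Dio3 region (rho 0.65). Within db/db libraries alone r was 0.87 for miR-532-5p, 0.77 for miR-155-5p, 0.69 for miR-30b-3p, 0.75 for miR-127-5p and 0.17 for miR-10b-5p, while within WT libraries it was 0.84, 0.67, 0.62, 0.58 and 0.81 in the same order. The median r of the 286 rows was 0.03 and the lowest -0.73, with 17 rows above 0.5 and 17 below -0.5. Without WT library 5 r over the other 11 libraries was 0.79 for miR-532-5p, 0.79 for miR-155-5p, 0.46 for miR-30b-3p, 0.62 for miR-10b-5p and 0.68 for miR-127-5p.

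The genotype means of these 5 rows were set beside those of miR-31-5p. miR-532-5p averaged 256 ± 61.2 RPM in db/db and 303 ± 48.6 RPM in WT libraries (SD, n = 6 each), with the higher mean in WT, unlike miR-31-5p. miR-10b-5p averaged 358 ± 105 RPM in db/db and 522 ± 171 RPM in WT libraries (SD, n = 6 each). miR-155-5p averaged 83.6 ± 20.5 RPM in db/db and 70.7 ± 23.9 RPM in WT libraries (SD, n = 6 each). miR-30b-3p and miR-127-5p averaged under 21 RPM in both genotypes and rested on few reads. The mature sequences of 3 of the 5 are shown, seeds in capitals, to set their seeds beside that of miR-31-5p: they have 3 distinct seeds, and 0 of them is that of miR-31-5p.
mmu-miR-155-5p: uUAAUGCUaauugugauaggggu
mmu-miR-10b-5p: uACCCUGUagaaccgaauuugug
mmu-miR-127-5p: cUGAAGCUcagagggcucugau

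**Figure D5:**
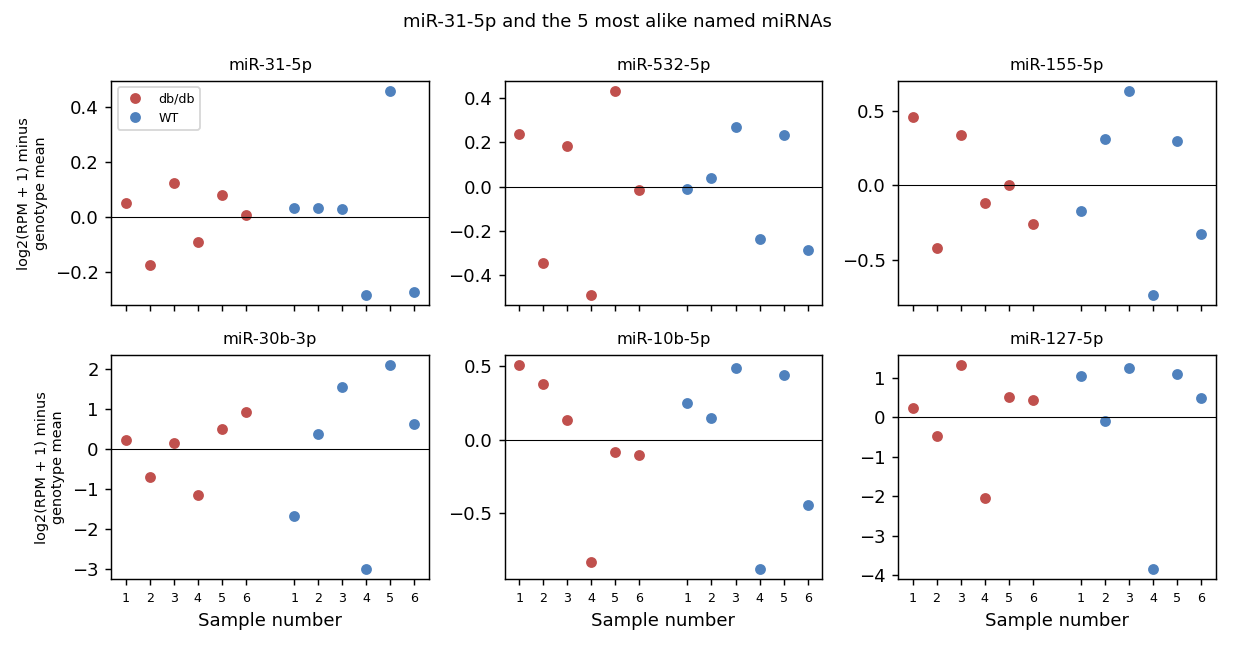
log2(RPM + 1) minus the genotype mean (vertical axes, which differ in scale) by sample number for miR-31-5p and the 5 named miRNAs most like it; points are libraries, db/db in red on the left and WT in blue on the right. db/db libraries 2 and 4 and WT libraries 4 and 6 lie below the genotype mean for miR-31-5p, miR-532-5p and miR-155-5p alike.

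miRNAs that have been described with miR-31 in smooth muscle growth and vascular injury were split in the sign of their difference. Of 11 members, all tested, limma called 0, where it called 0.155% of all rows. Of the 11, 5 had a difference above 0 and 6 below 0, beside 308 of all 646 rows above 0, and the median was -0.33, beside -0.04 over all 646 rows. On the higher side were miR-221-3p, which acts in smooth muscle growth (0.38 ± 0.16), and miR-125b-5p (0.36 ± 0.13). On the lower side were miR-143-3p, which marks contractile smooth muscle (-0.48 ± 0.13), the inflammation-responsive miR-146a-5p (-0.47 ± 0.19) and the stress-responsive miR-21a-5p (-0.45 ± 0.15; log2 difference and SE for all 5). miR-221-3p averaged 1191 ± 111 RPM in db/db and 919 ± 156 RPM in WT libraries, and its partner miR-222-3p averaged 307 ± 68.5 RPM in db/db and 284 ± 40.7 RPM in WT libraries (SD, n = 6 each).

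Marker miRNAs of the cell types that could supply miR-31 or dilute it were summed per library. The 7 epithelial miRNAs, in whose tissue miR-31 is abundant, summed to 173 to 261 RPM in db/db and 141 to 303 RPM in WT libraries, so their range in db/db lay inside that in WT. Of the 5 that were tested 3 had a difference above 0 and 2 below 0. Among them miR-203-3p and miR-205-5p, both of skin epithelium, differed in sign: miR-203-3p averaged 119 ± 27.2 RPM in db/db and 109 ± 30.6 RPM in WT libraries, and miR-205-5p averaged 39.1 ± 22.6 RPM in db/db and 46.6 ± 39.1 RPM in WT libraries (SD, n = 6 each). miR-200b-3p averaged 20.1 ± 18.6 RPM in db/db and 34.2 ± 36.2 RPM in WT libraries (SD, n = 6 each), and miR-141-3p was at 0 in 11 of 12 libraries. miR-200c-3p averaged 30.5 ± 12.0 RPM in db/db and 25.3 ± 15.9 RPM in WT libraries (SD, n = 6 each). The log2 difference was 0.38 ± 0.53 for miR-200c-3p and 0.18 ± 0.95 for miR-200a-3p (SE). The 2 smooth muscle miRNAs summed to 20809 to 34844 RPM in db/db and 29762 to 43508 RPM in WT libraries, and the 2 endothelial ones to 15588 to 25095 RPM in db/db and 18852 to 29569 RPM in WT libraries. The 5 lymphoid and myeloid miRNAs summed to 2981 to 6769 RPM in db/db and 3308 to 5171 RPM in WT libraries. Most of this was the lymphoid miR-150-5p (4196 ± 1385 RPM in db/db and 3570 ± 777 RPM in WT libraries; SD, n = 6 each). Of the 5, 3 had a difference above 0 and 2 below 0, among the latter the myeloid miR-223-3p (-0.72 ± 0.22; log2 difference, SE). The 3 erythroid miRNAs summed to 18260 to 30614 RPM in db/db and 9900 to 21106 RPM in WT libraries, so that these ranges overlapped and the highest sums were in db/db. Most of that sum was miR-486a-5p, which also comes from muscle through its host gene Ank1 (21760 ± 3952 RPM in db/db and 15389 ± 3987 RPM in WT libraries; SD, n = 6 each), while the red cell miR-451a differed by 0.26 ± 0.27 (log2 difference, SE). The 4 cardiac and skeletal muscle miRNAs summed to 337988 to 439537 RPM in db/db and 366750 to 420533 RPM in WT libraries, with 1 difference above 0 and 3 below 0. Most of that sum was miR-133a-3p (341153 ± 27552 RPM in db/db and 323867 ± 22817 RPM in WT libraries; SD, n = 6 each). Of these 4 miRNAs miR-208a-3p, from an intron of the cardiac myosin gene Myh6, stood lowest at -1.34 ± 0.55 (log2 difference, SE), with 29.6 ± 17.1 RPM in db/db and 68.6 ± 42.4 RPM in WT libraries (SD, n = 6 each). It is the less abundant arm of its hairpin. The 5p arm, which is not in the list, held 91.8% of the reads of that hairpin (94.4% in db/db and 89.6% in WT libraries). In WT library 5, the WT library with the most miR-31-5p, the erythroid (9900 RPM) and the lymphoid and myeloid (3308 RPM) sums were the lowest of the WT libraries and the epithelial sum was the next to lowest (142 RPM), while the smooth muscle (43508 RPM) and endothelial (29569 RPM) sums were the highest. The part of these cell types in the miR-31-5p difference was not tested.

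Because the libraries are of mitochondria, the 13 mitochondrial messenger RNAs of GENCODE M21 (11403 bases in all) were searched, on the RNA strand, for 7 letters complementary to each seed. The letters are TCTTGCC for miR-31-5p and GCATAGC for miR-31-3p. Each occurred 0 times, and 0 times in the 2 mitochondrial ribosomal RNAs. Of the 635 listed miRNAs with a sequence, 214 (33.7%) had at least 1 such match in the messenger RNAs. The search says only that these letters are not in these sequences.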

How the data were processed

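The authors deposited 1 table under the name TPM; its values are RPM, since each deposited column sums to 1000000 and holds whole multiples of the worth of 1 read, with no length term. Per the submitters' processing notes the reads were placed on GRCm39. Aligner, counter and miRNA annotation: not given in the sources used here. Adapters were joined to both ends of total RNA, followed by amplification and gel purification, per the labels. Reads were recovered from RPM: 100% of values were whole within 0.01 of a read. Each of 66 library pairs differed by more than sampling noise (chi-square over degrees of freedom at least 21.6).

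log2(RPM + 1) of the 646 rows that averaged 1 RPM or more was fitted with limma 3.58.1 (R 4.3.3), variance trended on abundance, two-sided, Benjamini-Hochberg adjusted, called under 0.05. The design assumed TPM; the log-scale test was kept. p-values measure the spread between these libraries, which may be technical. DESeq2 1.42.0 and the quasi-likelihood test of edgeR 4.0.16 (TMM scaling) were run on recovered reads. On 646 simulated rows of db/db against WT, at a mean of 100 RPM or more, limma found 2 of 13 simulated 1.5-fold changes, 12 of 21 of 2-fold size and 16 of 17 of 4-fold size. Far more rows were changed in the simulation than limma called in the data. This makes the adjustment more lenient, so these shares may overstate what limma can find here. PCR copies are not independent molecules, so intervals and limits reflect counting error alone.

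Named were the 2 arms, the 5 rows most correlated with miR-31-5p, the hairpins next in level, and list members; list members given with values, and the 3 rows exceeding miR-31-5p in size, were chosen after their values were seen. The members and lists were chosen with earlier results of these data known. Sequences and positions came from RefSeq GRCm38.p6 tables and GENCODE M21, whose build differs from that of the values. ViennaRNA 2.7.2 predicted the fold; Plots were drawn with matplotlib 3.10.9 in Python 3.11.15.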

Additional observations from a re-analysis of the deposited data

Results flagged for a closer look

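Of 18 groups of 6 values searched for a library far from the rest, 4 stood out; chance flags about 1 in 20 groups. The groups are not independent: 2 held equal values and could not stand out, and the 2 results for WT library 2 rest on the same 9 reads. miR-31-5p was 364.6 RPM in WT library 5 and at most 271.6 RPM in the other WT libraries, a gap of 0.633 of the range. For miR-31-3p, WT library 2 had 14.2 RPM and the next WT library 5.19 RPM, a gap of 0.635 of the range. The share of miR-31 reads in the 5p arm was 95.03% in that same library, with the next lowest WT library at 98.6% (a gap of 0.718 of the range). The depth of db/db library 5 was 1382046 reads and that of the next db/db library 773784 reads (a gap of 0.628 of the range).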

How the results depend on the processing

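The difference of miR-31-5p was 0.54 to 0.68 on the log2 scale with 1 library left out, 0.53 to 0.72 under the 13 other settings, and 0.59 with the replicate block. The arm was picked with its values known, and leaving out 1 library could not turn the sign. These ranges therefore only describe how far the size moved. With 0 reads in every db/db library, no setting could turn the sign of the miR-31-3p difference, and its size, a fit against a group at 0, is no bound. It was -1.31 to -0.79 with 1 library left out, -0.31 and -2.15 at a pseudocount of 10 and 0.1 RPM, -4.34 by edgeR, -3.64 by DESeq2 and -2.84 by edgeR with the replicate block, a setting added after seeing the data. It had no value without WT 2, in numbers 4 to 6 or at a mean of at least 10 RPM, where it failed the filter. The 5p share differed by 0.281 to 1.28 percentage points with 1 library left out. The planned correlation of the arms was not run, since it needed reads of both in at least 6 libraries and miR-31-3p had them in 2.

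Against 1 row called in the whole table, limma called 0 after quantile normalization, unfiltered, filtered at a mean of 10 RPM, without an abundance trend, at a pseudocount of 10 or 0.1 RPM, or without db/db 6 and WT 4; 2 after median-of-ratios scaling; 3 in numbers 4 to 6; and 10 when a factor set numbers 1 to 3 apart from 4 to 6. DESeq2 called 13 and edgeR 3. Leaving out 1 library gave 0 to 7: 7 without db/db 5, 6 without WT 1 or 3, 3 without db/db 4, and 0 without db/db 1, 2 or 3 or WT 2, 4, 5 or 6 (1 without db/db 6). The labels do not say that sample numbers pair the libraries. Same-numbered libraries correlated in their deviations by -0.06 to 0.31, which was not compared with differently numbered libraries. With the replicate block limma called 9 and edgeR 11. Whether the numbers mark a pairing or a batch was not tested. For these counts the cause was not tested.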
